A study of Mus musculus with 2 samples.

Results

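The 10 genes Spi1, Csf1r, Cx3cr1, Trem2, Adgre1, C1qa, C1qb, Mertk, Mrc1 and Cd68, which mark macrophages, were followed in single-nucleus chromatin accessibility data (scATAC-seq) of mouse mammary gland organoids. Their regions were all peaks of either library that overlapped a gene body or lay within 20000 bp of a transcription start site (TSS), on mm10 with GENCODE M21 annotation. Overlapping peaks of both libraries were merged. This gave 191 of 275294 merged regions, of which 118 had a peak in both libraries (174940 such shared regions in all). A further 52 regions had a peak in DOX only and 21 in EtOH only. By the sample labels, the organoids came from C57BL/6J mice that carried shTRPS1.34 ki/+, a knocked-in shRNA against Trps1, and CAG-rtTA3 tg/+, the transactivator that switches it on. Both groups carried both alleles by these labels. A supplementary legend of the study instead describes the mice of this experiment as wild-type. The labels were followed, and the accessibility data do not check whether Trps1 was depleted. One group received doxycycline at 0.1 µg/ml (DOX) and the other ethanol (EtOH), for 7 days each. The CAG promoter is active in most cell types, so that the shRNA is not restricted to epithelium. Cells of several mice of 1 shTrps1 line were pooled and each treatment was sequenced as 1 library, so no nucleus could be traced to a mouse. No test between treatments was therefore made. All intervals are 95% intervals of counting error and say nothing about variation between mice.

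DOX held 3071 nuclei and EtOH 3104, with a median of 75296 and 66790 counts per nucleus. Barcodes found in both libraries numbered 23. Nuclei were clustered on the shared regions with all regions of the 10 genes left out, and clusters were named from other marker genes. Macrophage-like nuclei (clusters 2 and 5) made up 1265 of 3071 nuclei in DOX (41.2%, interval 39.4 to 43.0) and 273 of 3104 in EtOH (8.80%, interval 7.82 to 9.85). Epithelial-like nuclei (clusters 0, 1, 3 and 4) numbered 1575 and 2681, and 231 and 150 nuclei stayed unnamed. Of the unnamed nuclei, 190 and 129 formed cluster 6, with median log2 folds of 0.94 for the fibroblast list and 0.90 for the basal list. Cluster 6 is not part of the epithelial-like class, and no cluster of that class was named from the basal list. In clusters 2 and 5 all 13 macrophage markers other than the 10 genes lay above their level in the remaining nuclei, with median log2 folds of 2.58 and 2.20. The epithelial list lay at -2.80 and -2.71 there, the T cell list at -0.37 and -0.59 and the neutrophil list at 0.87 and 0.42. The dendritic cell list lay at 0.32 and 0.39 and the endothelial list at 0.26 and 0.42. All other lists lay below 0 in both clusters. Clusters 0, 1 and 4 were nearly confined to a single library, with 101, 1366 and 14 nuclei from DOX and 1687, 29 and 489 from EtOH.

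Macrophages are tissue-resident phagocytes that live in the mammary epithelium and stroma and clear dying cells. PU.1, the ETS-family transcription factor encoded by Spi1, sets up the enhancers of the lineage together with RUNX, C/EBP and AP-1 factors. Signals through the CSF1 receptor keep the cells alive. Open chromatin at a promoter or enhancer shows that a site is accessible to the transposase, and it does not measure RNA or protein.

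The sequences below show sites on which the comparisons rest, in the GRCm38 reference. The letters GAGGAA (core of the ETS sites bound by PU.1) and TGTGGT (RUNX core) are in capitals on either strand. The first 3 elements were open in macrophage-like nuclei and the fourth in epithelial-like nuclei. Each is the central 300 bases of its region on the plus strand, because the deposited peaks carry no summit.
Spi1 upstream element at an alternative start, -13041 bp, chr2:91082906-91083205: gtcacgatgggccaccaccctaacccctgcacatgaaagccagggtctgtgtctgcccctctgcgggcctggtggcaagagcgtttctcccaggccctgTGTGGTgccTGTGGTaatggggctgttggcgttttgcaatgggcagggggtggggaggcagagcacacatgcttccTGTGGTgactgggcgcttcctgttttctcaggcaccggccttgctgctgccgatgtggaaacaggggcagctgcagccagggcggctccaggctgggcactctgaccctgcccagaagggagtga
Cx3cr1 intronic element, 13170 bp, chr9:120054976-120055275: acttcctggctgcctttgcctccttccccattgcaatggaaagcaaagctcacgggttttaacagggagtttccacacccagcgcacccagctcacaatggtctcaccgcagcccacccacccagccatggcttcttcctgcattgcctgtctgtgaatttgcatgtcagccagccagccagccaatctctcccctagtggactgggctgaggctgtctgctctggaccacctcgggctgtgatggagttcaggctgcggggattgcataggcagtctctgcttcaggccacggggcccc
Adgre1 upstream element, -11539 bp, chr17:57347026-57347325: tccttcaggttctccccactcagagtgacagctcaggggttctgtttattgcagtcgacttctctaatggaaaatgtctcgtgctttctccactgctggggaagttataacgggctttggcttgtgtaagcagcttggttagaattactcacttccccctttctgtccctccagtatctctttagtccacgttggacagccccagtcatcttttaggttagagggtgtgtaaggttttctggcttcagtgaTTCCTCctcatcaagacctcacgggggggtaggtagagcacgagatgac
Mertk intronic element, 40063 bp, chr2:128738869-128739168: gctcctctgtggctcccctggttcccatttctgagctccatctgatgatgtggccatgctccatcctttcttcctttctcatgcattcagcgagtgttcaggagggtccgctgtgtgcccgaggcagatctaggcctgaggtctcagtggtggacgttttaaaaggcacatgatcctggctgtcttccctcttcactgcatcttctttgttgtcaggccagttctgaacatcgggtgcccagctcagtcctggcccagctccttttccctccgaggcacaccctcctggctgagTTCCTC

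The 250 bases before the RefSeq start are shown for 3 promoters on the coding strand. C1qb had the highest macrophage-like level per length, Mrc1 the lowest, and Mertk was open in both nucleus classes.
C1qb, minus strand, chr4:136886201-136886450: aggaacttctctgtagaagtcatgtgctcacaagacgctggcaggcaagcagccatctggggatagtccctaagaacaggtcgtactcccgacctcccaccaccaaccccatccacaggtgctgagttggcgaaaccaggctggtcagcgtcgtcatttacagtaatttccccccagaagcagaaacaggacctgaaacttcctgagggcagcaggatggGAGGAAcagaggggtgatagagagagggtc
Mrc1, plus strand, chr2:14229164-14229413: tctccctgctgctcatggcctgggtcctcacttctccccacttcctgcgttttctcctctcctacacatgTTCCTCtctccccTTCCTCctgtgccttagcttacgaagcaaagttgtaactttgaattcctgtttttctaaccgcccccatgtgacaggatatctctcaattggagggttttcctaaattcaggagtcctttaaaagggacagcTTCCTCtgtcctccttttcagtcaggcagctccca
Mertk, plus strand, chr2:128698665-128698914: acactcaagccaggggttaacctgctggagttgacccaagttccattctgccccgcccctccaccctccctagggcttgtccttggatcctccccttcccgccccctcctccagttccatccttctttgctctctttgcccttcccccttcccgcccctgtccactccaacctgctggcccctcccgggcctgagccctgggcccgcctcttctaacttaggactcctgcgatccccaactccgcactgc

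RefSeq promoter windows were at hand for Cx3cr1, Trem2, C1qb, Mertk, Mrc1 and Cd68. The window of Mrc1 held 3 matches to GAGGAA, those of C1qb, Trem2 and Cd68 held 1 each, and those of Mertk and Cx3cr1 held 0. Of all 32851 RefSeq windows, 23.3% held this motif and 14.0% held TGTGGT. In the Spi1 upstream element 3 matches to TGTGGT were found and 0 to GAGGAA. Neither motif occurred in the Cx3cr1 element. Among the 56 member regions without a start site of another gene that were at least 2-fold more open in macrophage-like nuclei, 27 (48.2%) held GAGGAA in the central 300 bases. Of the 19 that were at least 2-fold less open there, 9 (47.4%) did. The share among all shared regions was 32.5%. For TGTGGT the shares were 41.1%, 31.6% and 27.4%, for the AP-1 motif TGANTCA 25.0%, 31.6% and 20.9%, and for the C/EBP motif TTGCNNAA 21.4%, 10.5% and 16.0%, in the same order. Both strands were searched and the motifs do not contain each other. A match is a description of letters, and none of these sites was tested for binding.

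At 9 of 10 promoters accessibility was at least 2-fold higher in macrophage-like than in epithelial-like nuclei, with Mertk as the exception, against 8.15% of 16339 promoters of all genes. The median over the 10 promoters was a log2 fold of 4.48, beside 0.26 over all promoters. A promoter is here the sum of shared regions within 1000 bp of any annotated start of the gene, and levels are CPM, counts per 1000000 counts in shared regions. The clusters were formed from the same nuclei, so this contrast describes the classes and is not a test of them.

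Spi1 (chr2:91082390-91115756) had the highest summed promoter level of the 10 genes in macrophage-like nuclei. It was 77.9 CPM in DOX (75.2 to 80.6) and 72.2 in EtOH (65.9 to 78.9), against 8.71 and 8.12 in epithelial-like nuclei. This epithelial signal came mostly from 1 of its 3 promoter regions. The region at -14962 bp lay upstream of the outermost start of the gene, within 1000 bp of it. This region gave 7.55 and 6.86 CPM in epithelial-like nuclei and 16.0 and 15.5 in macrophage-like nuclei. The upstream element at -13041 bp gave 0.73 and 0.81 CPM in epithelial-like nuclei against 33.9 and 32.1. The region at 581 bp, in an exon next to the main start, gave 0.43 and 0.45 against 28.0 and 24.6. So the inner Spi1 regions separated the classes and the outer one did so much less.

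Csf1r, the receptor for CSF1 and IL-34, had 58.7 CPM in DOX (56.4 to 61.1) and 55.3 in EtOH (49.8 to 61.1) at its promoter regions in macrophage-like nuclei. In epithelial-like nuclei the levels were 4.78 and 7.21 CPM. The most open region of the gene was an intronic one at 3051 bp, with 52.4 and 62.0 CPM against 6.76 and 7.18. Csf1r carries a known macrophage enhancer in an intron near its start.

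Among the surface receptors, Cx3cr1, the fractalkine receptor, had 20.4 CPM in DOX (19.0 to 21.8) and 20.2 in EtOH (17.0 to 23.9) in macrophage-like nuclei. Epithelial-like nuclei had 0.51 and 0.62 CPM, from 58 and 109 counts. Trem2, a lipid-sensing receptor, had 43.5 and 48.9 CPM against 2.11 and 1.90. Adgre1, which encodes F4/80, had 35.0 and 43.8 CPM against 2.12 and 1.49. In each of these genes the intervals of the macrophage-like and epithelial-like levels were far apart in both libraries.

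C1qa and C1qb, which encode chains of the complement component C1q, showed the widest separation. C1qb (chr4:136880129-136886187) had 59.8 CPM in DOX (57.5 to 62.3) and 65.0 in EtOH (59.1 to 71.4) in macrophage-like nuclei. In epithelial-like nuclei it had 0.83 CPM in DOX (0.61 to 1.10) and 0.44 in EtOH (0.31 to 0.60). The macrophage-like level was 72.2-fold higher in DOX and 149-fold higher in EtOH. C1qa had 37.0 and 36.6 CPM against 0.92 and 0.57. The neighbouring start of C1qc, the third chain, lies between these genes, and its region at 5811 bp from C1qa had 46.7 and 49.1 CPM against 0.74 and 0.44.

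Mertk, a receptor for the uptake of apoptotic cells, was open in both classes. Its promoter regions had 50.5 CPM in DOX (48.3 to 52.7) and 63.3 in EtOH (57.4 to 69.6) in macrophage-like nuclei. Epithelial-like nuclei had 30.9 CPM (29.4 to 32.3) and 29.6 (28.4 to 30.7), 61.1% and 46.7% of the macrophage-like level. This signal sat at the region next to the main start, with 30.6 and 29.4 CPM. The region at an internal start at 72315 bp had 0.24 and 0.16 CPM in epithelial-like nuclei and 9.03 and 11.5 in macrophage-like nuclei.

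Of the endocytic and lysosomal genes, Mrc1, which encodes the mannose receptor CD206, had the lowest level of the 10, with 10.6 CPM in DOX (9.63 to 11.6) and 11.4 in EtOH (9.01 to 14.2) in macrophage-like nuclei. Epithelial-like nuclei had 0.41 CPM in both libraries. Cd68, a lysosomal membrane protein, had 56.0 and 59.5 CPM against 7.87 and 7.94. Per kb of region the order in DOX macrophage-like nuclei was C1qb (65.7 CPM per kb), Cd68 (62.3), C1qa (41.3), Mertk (28.3), Spi1 (28.0), Cx3cr1 (25.3), Trem2 (24.8), Csf1r (20.7), Adgre1 (20.0) and Mrc1 (13.0). In EtOH the same measure ran from 71.4 for C1qb to 14.0 for Mrc1. The median shared region had 0.94 CPM per kb in macrophage-like nuclei.

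**Figure D1:**
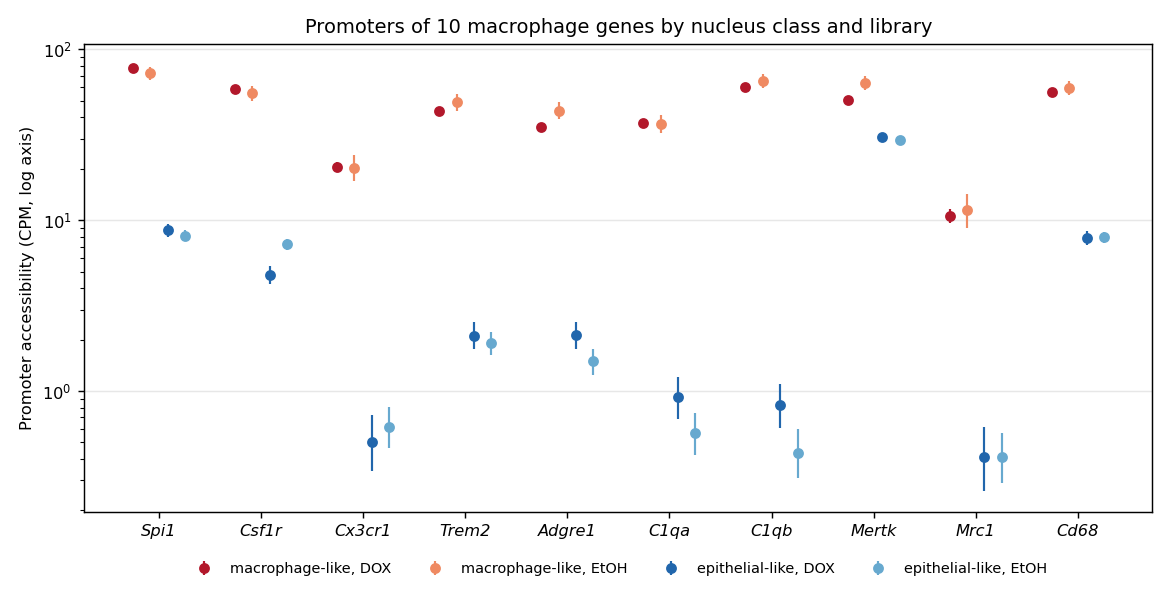
Promoter accessibility of the 10 genes in CPM (log axis) in macrophage-like and epithelial-like nuclei of DOX and EtOH. Points are the level of 1 library and bars are 95% Poisson intervals. In 9 genes the macrophage-like points lie far above the epithelial-like ones, and in Mertk they lie at 50.5 and 63.3 against 30.9 and 29.6 CPM.

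Of 118 shared regions of the 10 genes, 60 were at least 2-fold more open in macrophage-like nuclei and 23 at least 2-fold less open. Over the 174618 shared regions of the genome that reached 100 counts, 17.7% were higher and 53.9% lower by as much. The median log2 fold was 1.05 over the regions of the 10 genes and -1.37 over all shared regions. The rule also takes in 24 regions that carry a start site of another gene, of which 4 were at least 2-fold higher and 4 lower. Without them the counts were 56 higher and 19 lower of 94, with a median log2 fold of 2.20. For Cd68, 12 of 13 shared regions carried such a start, among them those of Eif4a1, Mpdu1 and Senp3, and 11 stayed within 2-fold.

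Distal regions, more than 1000 bp from every start, carried some of the largest class differences. The Adgre1 region at -11539 bp had 23.5 CPM in DOX and 24.8 in EtOH in macrophage-like nuclei against 0.31 and 0.19, a log2 fold of 6.59. All 5 shared regions of Adgre1 were at least 2-fold higher. The Spi1 region at -11497 bp, an intron of the longer transcripts, had 33.5 and 35.3 CPM against 0.48 and 0.37, a log2 fold of 6.33. An intronic Mrc1 region at 20737 bp had 21.8 and 25.5 CPM against 0.45 and 0.32, more than the 10.6 and 11.4 CPM of its promoter. For Trem2 the leading distal region at 9655 bp had 18.9 and 21.9 CPM against 2.81 and 5.97. The leading one of C1qa and C1qb, shared by both genes, had 19.4 and 16.5 CPM against 4.32 and 4.28.

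The annotated body of Cx3cr1 (chr9:119901616-120069879) includes a read-through transcript across Wdr48, Gorasp1, Ttc21a, Csrnp1 and Xirp1. By the rule its leading distal region lay at 66083 bp and was about equally open in both classes, with 43.0 and 35.9 CPM against 36.6 and 34.4. Closer to the start the picture differed. The intronic region at 13170 bp had 40.3 and 41.0 CPM against 0.86 and 0.70, the one at 9421 bp 32.7 and 39.1 against 0.65 and 0.53, and the one at 24976 bp 35.5 and 36.1 against 0.69 and 0.58. These 3 regions were chosen after their values were seen. The promoter region of Cx3cr1 also carries the start of Gm33858, and the strand of a read cannot tell them apart in this assay.

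Mertk held macrophage-like and epithelial-like regions side by side. Of its 20 shared regions 10 were at least 2-fold higher in macrophage-like nuclei and 5 at least 2-fold lower. The intronic region at 97698 bp had 18.7 and 20.9 CPM in macrophage-like nuclei against 1.09 and 0.59. The element at 40063 bp printed above had 1.26 and 0.52 CPM in macrophage-like nuclei against 30.9 and 25.4 in epithelial-like nuclei, and its neighbour at 38987 bp had 0.73 and 0.66 against 22.3 and 21.7.

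**Figure D2:**
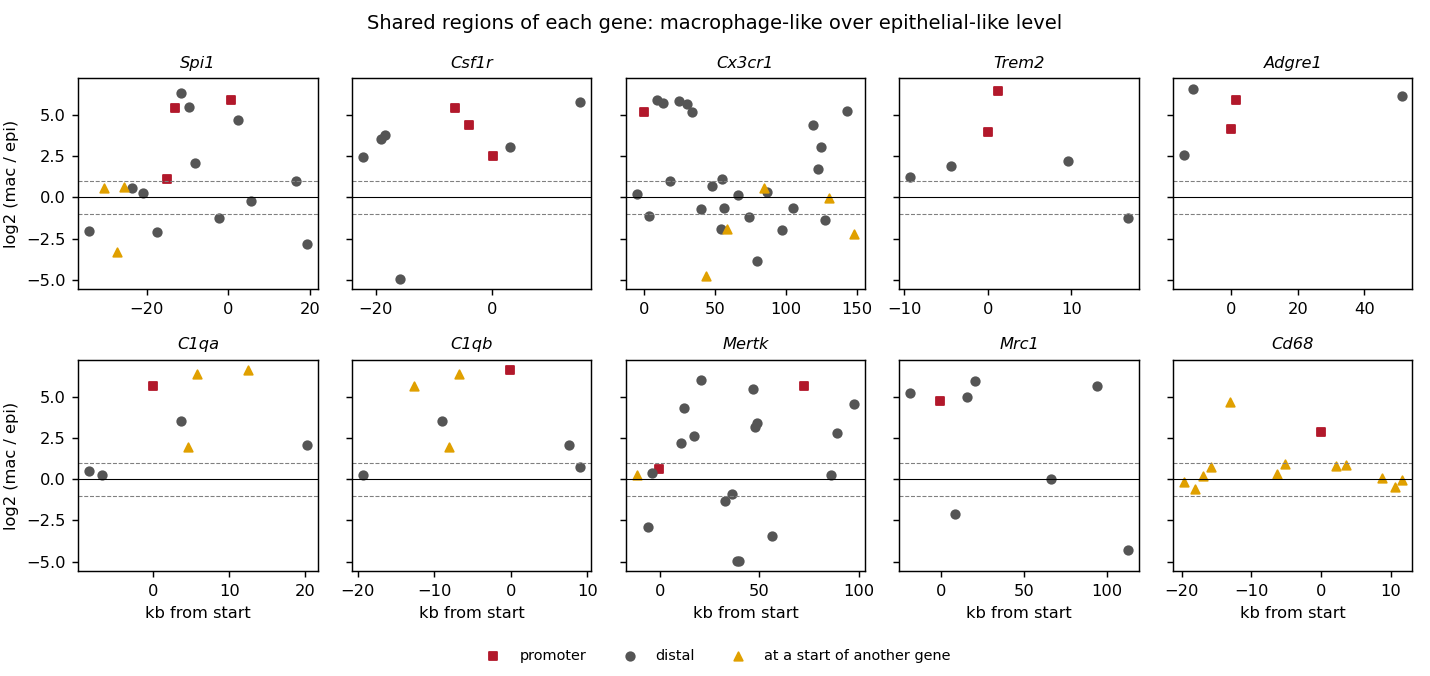
Log2 ratio of the macrophage-like over the epithelial-like level (mean of both libraries) of each shared region against its distance from the main start of the gene in kb, for promoter regions, distal regions and regions at a start of another gene. Dashed lines mark 2-fold. The Adgre1 regions all lie above the upper line, most Cd68 regions lie between the lines, and the Mertk panel has points at 6.03 and at -4.98.

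The background of these genes in epithelial-like nuclei differed from gene to gene. Summed over the 17 promoter regions, the epithelial-like level was 13.2% of the macrophage-like level in DOX (12.7 to 13.6) and 12.2% in EtOH (11.7 to 12.8). Over the 78 distal regions it was 51.5% and 46.1%, and over the 94 regions without a start of another gene 38.3% (37.7 to 38.9) and 34.3% (33.5 to 35.1). Cx3cr1, whose annotated body includes the read-through transcript, held 24 of the 78 distal regions. These 24 gave 205 of 414 CPM in DOX and 206 of 386 in EtOH in epithelial-like nuclei. In macrophage-like nuclei they gave 352 of 805 and 357 of 836 CPM. The distal share thus rests in large part on this locus. At single promoters it ran from 1.39% and 0.67% at C1qb, 2.48% and 1.54% at C1qa and 2.48% and 3.04% at Cx3cr1 to 14.0% and 13.4% at Cd68 and 61.1% and 46.7% at Mertk. For comparison, the reverse background of epithelial marker promoters was 79.8 CPM in macrophage-like and 542 in epithelial-like nuclei of DOX, and 68.2 and 533 in EtOH. T cell marker promoters had 71.5 and 74.2 CPM in macrophage-like nuclei and 37.8 and 30.9 in epithelial-like nuclei.

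Per nucleus, a promoter of C1qb had at least 1 count in 80.6% of macrophage-like nuclei of DOX and 74.7% of EtOH. In epithelial-like nuclei, a class in which C1qb is not expected to be expressed, the shares were 2.29% and 1.19%. Median counts per nucleus were 75507 and 52768 in macrophage-like and 74525 and 68673 in epithelial-like nuclei, so the lower share in EtOH macrophage-like nuclei came with a lower depth. After thinning each nucleus to 10000 counts, with shallower nuclei left out (1243 and 268 macrophage-like and 1484 and 2582 epithelial-like nuclei remained), the shares were 39.7% and 42.9% against 0.47% and 0.31%. For Mrc1 the unthinned shares were 30.0% and 24.9% against 1.71% and 1.57%, and the thinned ones 8.53% and 12.3% against 0.20% and 0.31%. For Mertk they were 77.9% and 75.8% against 60.5% and 57.1%.

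Counted together, a macrophage-like nucleus had a median of 7 of the 10 promoters open in both libraries, and an epithelial-like nucleus 1. No open promoter was seen in 7 of 1265 and 3 of 273 macrophage-like nuclei, and in 352 of 1575 (22.3%) and 659 of 2681 (24.6%) epithelial-like nuclei. At least 5 promoters were open in 88.1% and 81.0% of macrophage-like nuclei and in 1.27% and 0.97% of epithelial-like nuclei. After thinning, the medians were 3 and 0 in both libraries.

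**Figure D3:**
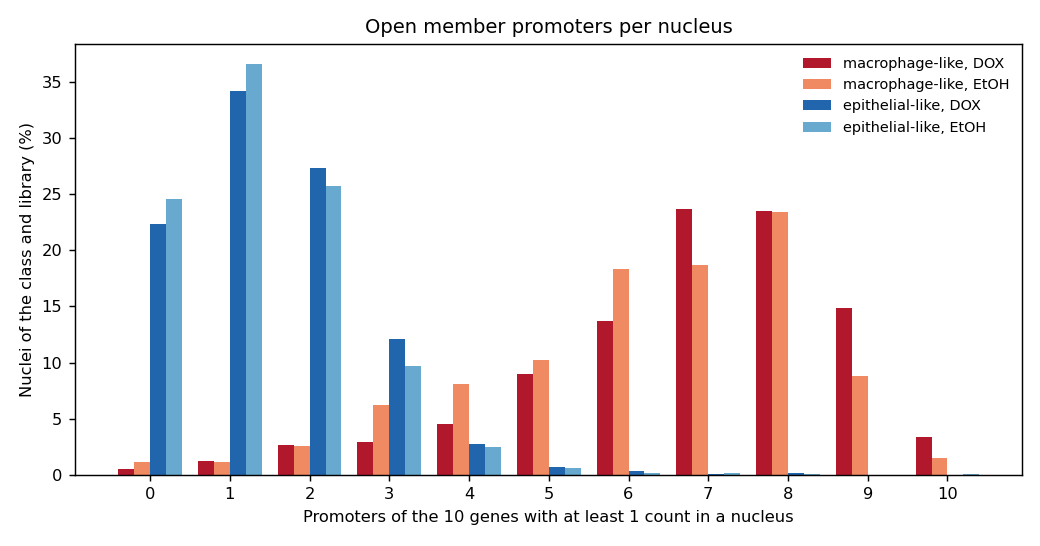
Share of nuclei in percent by the number of the 10 promoters with at least 1 count, for each class and library. Macrophage-like nuclei have a median of 7 open promoters in DOX and in EtOH, and epithelial-like nuclei a median of 1.

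Between treatments, the sum over all nuclei was higher in DOX at all 10 promoters. The median log2 ratio of DOX over EtOH was 1.81, beside 0.09 over the promoters of all genes and -0.13 over all shared regions. In bulk sums of this kind more nuclei of a type and more open chromatin per nucleus cannot be told apart. The ratio was at least 2-fold at 9 of 10 promoters, against 3.43% of 16341 promoters higher and 1.67% lower by as much. C1qa had 14.9 CPM in DOX and 3.01 in EtOH, a log2 ratio of 2.31 (2.13 to 2.49), and C1qb had 23.8 and 4.81, also 2.31 (2.16 to 2.45). Cx3cr1 followed with 8.22 and 1.93 CPM, a log2 ratio of 2.09 (1.86 to 2.32). At the other end stood Cd68 with 26.6 and 11.4 CPM and 1.22 (1.12 to 1.32), and Mertk with 38.0 and 31.7 CPM and 0.26 (0.19 to 0.33). Of the 118 shared regions 48 were at least 2-fold higher in DOX and 1 lower, against 13.0% and 13.4% of 174772 shared regions. The lower one, an intronic region in the read-through part of Cx3cr1 at 79765 bp, had 5.27 and 11.9 CPM.

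Of the 48 regions higher in DOX, 47 were at least 2-fold more open in macrophage-like nuclei. Of the 60 regions at least 2-fold more open in these nuclei 47 were at least 2-fold higher in DOX, with a median log2 ratio of 1.88. For the 23 regions that were less open there the median was -0.51, and 0 reached a 2-fold excess in DOX. Over the whole genome 13.0% of shared regions were at least 2-fold higher in DOX. At least 2-fold more open in macrophage-like nuclei were 17.7%. How far these 2 sets overlap genome-wide is not given here, so the overlap is not a finding about these genes. Macrophage-like nuclei supplied 38.8% of all counts in shared regions of DOX and 6.77% of EtOH, a log2 ratio of 2.52, and their share of nuclei had a log2 ratio of 2.23. They supplied 82.8% and 37.4% of the counts at the 10 promoters, from 97.5% and 91.5% at C1qb to 51.5% and 13.5% at Mertk. With macrophage-like nuclei left out, the median log2 ratio of the 10 promoters was 0.07, and 6 regions were 2-fold higher and 3 lower in DOX of 108 compared, beside 5.38% and 8.40% of 168809 shared regions.

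Within macrophage-like nuclei the 10 promoters lay close together in DOX and EtOH. Their median log2 ratio was -0.10, beside -0.04 over 14684 promoters of all genes, and 0 of 10 reached 2-fold in either direction, against 1.27% higher and 0.116% lower. The ratio of Spi1 was 0.11 (-0.03 to 0.25) and that of Csf1r 0.09 (-0.07 to 0.25). Cx3cr1 and C1qa were at 0.01, with intervals of -0.25 to 0.28 and -0.18 to 0.21. C1qb, Cd68 and Mrc1 lay between -0.12 and -0.09 and Trem2 at -0.17, with intervals that held 0. Only 2 promoters had intervals without 0, namely Adgre1 at -0.32 (-0.50 to -0.14) and Mertk at -0.33 (-0.48 to -0.17). These intervals do not include variation between mice or libraries. A p-value was not available, and the absence of a 2-fold difference does not show that the treatments were alike.

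**Figure D4:**
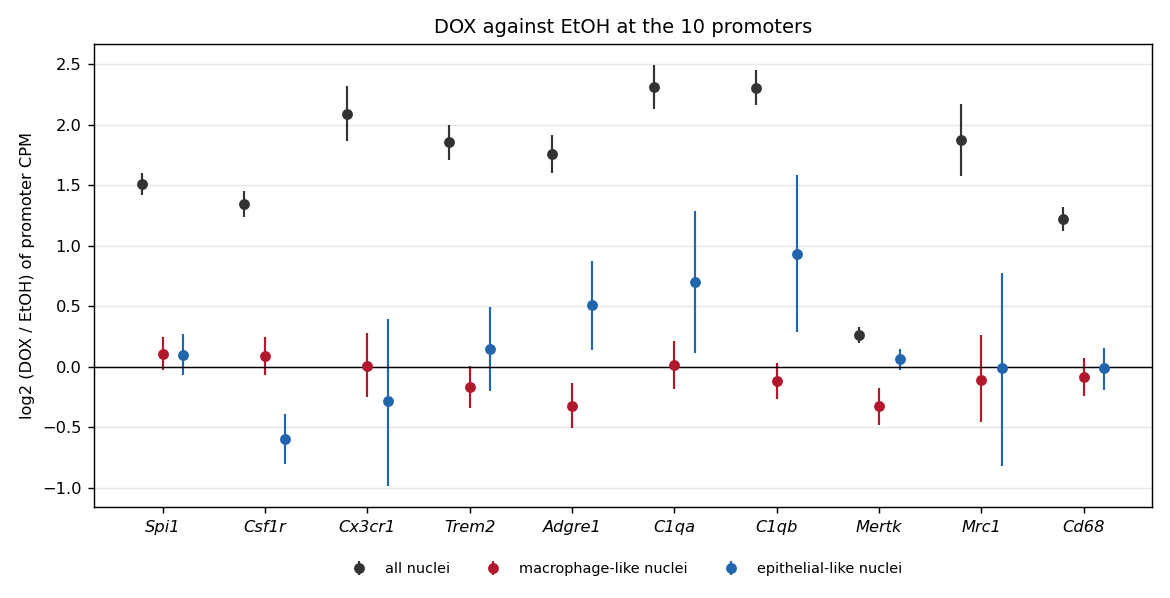
Log2 ratio of DOX over EtOH at each promoter over all nuclei, within macrophage-like nuclei and within epithelial-like nuclei, with 95% counting intervals from 1 library per treatment. Over all nuclei the ratios run from 0.26 at Mertk to 2.31 at C1qa, and within macrophage-like nuclei from -0.33 to 0.11.

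Among the regions of the 10 genes with at least 100 counts in macrophage-like nuclei, 3 of 101 were at least 2-fold higher in DOX and 1 lower, against 6.39% and 0.379% of 83905 shared regions. These 4 regions had few counts. They were the Cx3cr1 regions at 122641 bp (3.34 and 1.18 CPM, from 275 and 16 counts), 73914 bp (1.68 and 0.59, from 138 and 8) and 97455 bp (2.11 and 4.34, from 174 and 59), and the Mertk region at 40063 bp (1.26 and 0.52, from 104 and 7). The interval of the Mertk region held a ratio of 1, on the log2 scale -0.23 to 3.39. Summed distal regions of a gene had log2 ratios between -0.21 at Mertk (-0.33 to -0.09) and 0.27 at C1qa and C1qb (0.07 to 0.47 at C1qa).

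Within epithelial-like nuclei 0 of 10 promoters differed by 2-fold between treatments, beside 0.937% higher and 0.967% lower of 16229 promoters, and the median log2 ratio was 0.08. The intervals of 4 did not hold 0. C1qb was at 0.93 (0.29 to 1.58), C1qa at 0.70 (0.11 to 1.29), Adgre1 at 0.51 (0.14 to 0.87) and Csf1r at -0.59 (-0.80 to -0.39). The first 3 rest on background levels of 2.12 CPM or less. Most epithelial-like nuclei of DOX lay in cluster 1 (1366 of 1575) and most of EtOH in cluster 0 (1687 of 2681). The summed distal regions of Adgre1 had 3.99 CPM in DOX and 1.64 in EtOH, a log2 ratio of 1.28 (0.98 to 1.59). Without the 5% of nuclei of the highest doublet score in each library, C1qb had 0.64 and 0.32 CPM and C1qa 0.85 and 0.44 in epithelial-like nuclei, in DOX and EtOH. The DOX library held more macrophage-like nuclei, and the part of this in the background was not tested.

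The Csf1r promoter was not evenly low across epithelial-like clusters. In cluster 3, named from the hormone-sensing luminal list, it had 20.1 CPM in DOX and 21.8 in EtOH. In cluster 4, named from the same list, it had 9.51 CPM in EtOH, and in cluster 0, named from the luminal progenitor list, 5.22 and 1.90 CPM. Cluster 1, with 1366 of the 1575 epithelial-like nuclei of DOX, had 3.58 CPM in DOX (3.08 to 4.14). The signal of cluster 3 lay at the region over the first exon of Csf1r, with 15.2 CPM in DOX and 18.3 in EtOH, beside 30.7 and 29.7 in cluster 2. The upstream region at -6415 bp had 1.02 and 0.81 CPM in cluster 3 against 14.2 and 11.7 in cluster 2, and the intronic region at 3051 bp had 2.18 and 1.99 against 51.6 and 62.3. Within cluster 3 the ratio of DOX over EtOH at the promoter was -0.11 on the log2 scale (-0.48 to 0.24). Within cluster 0 it was 1.46 (0.32 to 2.42), opposite to the -0.59 over all epithelial-like nuclei, with 19 counts in DOX. In cluster 0 C1qa, at 2.54 (0.53 to 4.12), and Adgre1, at 1.42 (0.32 to 2.36), also had ratios above 2-fold. Their intervals did not hold 0, from 101 nuclei of DOX and 1687 of EtOH. The C1qa ratio rests on 8 counts in DOX and 40 in EtOH, which is below the minimum count for a call. The Adgre1 ratio rests on 20 counts in DOX and 217 in EtOH. DOX had 94 nuclei in cluster 3 and EtOH 476, so the lower Csf1r level over all epithelial-like nuclei of DOX went with a smaller share of this cluster, whose part in it was not tested.

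Spi1 showed the opposite order, with 15.1 and 10.7 CPM at its promoter regions in cluster 0 and 3.33 and 2.65 in cluster 3. The outer region at -14962 bp gave 12.6 and 9.43 of it in cluster 0. Mertk had 34.6 and 32.5 CPM in cluster 0 and 20.6 and 23.8 in cluster 3. Cd68 varied little, between 7.17 and 9.06 CPM over clusters 0 and 3.

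**Figure D5:**
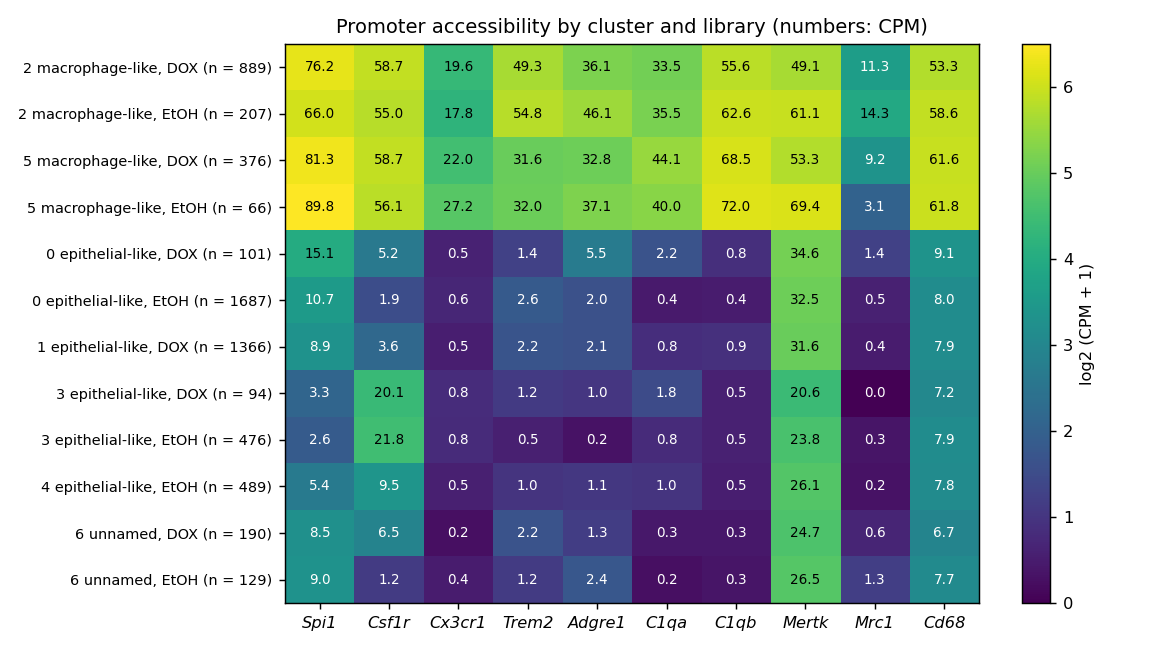
Promoter accessibility of the 10 genes in every cluster and library with at least 50 nuclei, as CPM (numbers) on a log2 (CPM + 1) colour scale. The Csf1r column stands out in epithelial-like cluster 3 with 20.1 and 21.8 CPM, and the Mertk column is open in all clusters.

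The macrophage-like clusters 2 (1096 nuclei) and 5 (442 nuclei) both had counts at all 10 promoters in both libraries. Cluster 5 had less Trem2, with 31.6 CPM in DOX against 49.3 in cluster 2 and 32.0 against 54.8 in EtOH, log2 ratios of -0.64 (-0.80 to -0.49) and -0.77 (-1.21 to -0.36). The distal regions of Trem2 followed, with -0.51 and -0.71. C1qa and C1qb were higher in cluster 5 in DOX, by 0.40 (0.25 to 0.55) and 0.30 (0.18 to 0.42) on the log2 scale, while the intervals in EtOH held 0. The distal regions of C1qa were higher in cluster 5 of EtOH, with 0.74 (0.33 to 1.13). Spi1 was higher in cluster 5 of EtOH by 0.44 (0.16 to 0.72), and in DOX its interval held 0. So was the Cx3cr1 promoter, by 0.61 (0.08 to 1.13) in EtOH, with an interval in DOX that held 0. The distal regions of Cx3cr1 were lower in cluster 5, by -0.16 in DOX and -0.15 in EtOH. In DOX the Cd68 promoter was higher by 0.21 (0.08 to 0.33) and the distal regions of Adgre1 by 0.28 (0.14 to 0.42). Their intervals in EtOH held 0. Mrc1 had 9.16 against 11.3 CPM in DOX and 3.12 against 14.3 in EtOH at its promoter, the former of these EtOH values from 11 counts. The distal regions of Mrc1 went the other way. They were higher in cluster 5, by 0.23 (0.10 to 0.36) in DOX and 0.40 (0.07 to 0.72) in EtOH. Cluster 5 made up 376 of 1265 macrophage-like nuclei in DOX and 66 of 273 in EtOH. These clusters come from the same nuclei, so their differences are a description.

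Regions with a peak in 1 library were described only where they had counts. Of 170 member regions with a DOX peak, 52 (30.6%) had no EtOH peak, beside 21.1% of all 221771 regions with a DOX peak. For EtOH peaks the share was 21 of 139 (15.1%), beside 23.4% of 228463. The DOX-only regions drew 86.1% of their counts from macrophage-like nuclei, which supplied 38.8% of all counts in shared regions of DOX. The EtOH-only regions drew 90.1% from epithelial-like nuclei, which were 86.4% of all EtOH nuclei, so this value lay near their share. The same shares over all regions with a peak in 1 library are not given here. Adgre1 had 11 and Mrc1 14 of the 52. The most open of them was a Csf1r region at -14347 bp, with 28.5 CPM in macrophage-like nuclei of DOX and 1.40 in epithelial-like nuclei. The files give no EtOH count for it, which is not a count of 0. Peaks were called over all nuclei of a library, and EtOH had 273 macrophage-like nuclei.

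Other macrophage genes were taken from a list of 53 in 5 groups by role. A shared promoter region was found for 50, and 49 had at least 100 counts in macrophage-like nuclei. Of these 39 were at least 2-fold more open in macrophage-like than in epithelial-like nuclei, beside 8.15% of 16339 promoters of all genes. The median log2 fold of the 49 was 2.57. None of the 49 was 2-fold apart between treatments within macrophage-like nuclei (0 higher and 0 lower, median log2 ratio -0.05). Such differences were also rare over all 14684 promoters, with 1.27% higher and 0.116% lower. By group, 8 of 13 transcription factors, 8 of 10 signalling adaptors and cytokine receptors, 10 of 10 complement, Fc and uptake receptors, 7 of 9 endocytic and lysosomal genes and 6 of 7 resident or monocyte markers were more open in macrophage-like nuclei.

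The highest and lowest ratios between treatments in each group were modest. Among transcription factors they were Tfec at 0.22 (-0.16 to 0.61) and Cebpa at -0.33 (-0.47 to -0.20), which had 65.1 CPM in DOX and 82.1 in EtOH. Among adaptors and cytokine receptors they were Fcer1g at 0.16 (-0.05 to 0.37), the signalling chain of Fc receptors, and Il10ra at -0.29 (-0.53 to -0.05), the receptor for IL-10. Among uptake receptors they were Fcgr3 at 0.22 (0.04 to 0.42) and Fcgr1 at -0.20 (-0.46 to 0.06), both Fc gamma receptors. Among endocytic and lysosomal genes they were Msr1 at 0.22 (-0.16 to 0.63), a scavenger receptor, and Gpnmb at -0.35 (-0.68 to -0.01).

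The widest ratios stood in the group of resident and monocyte markers. Ccr2, a chemokine receptor of monocytes, had 4.13 CPM in DOX and 2.65 in EtOH, a log2 ratio of 0.64 (-0.06 to 1.43). Timd4, a marker of long-lived resident macrophages, had 2.10 and 4.12, a log2 ratio of -0.97 (-1.60 to -0.30). Both rest on low levels, with 376 and 229 counts in all macrophage-like nuclei.

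The genes whose promoter pattern over the 8 clusters was most like the sum of the 10 promoters were Itgam, Arhgap15, Fcrls, Tnfrsf13b and Apoa2, with a Pearson r of 0.999 each, of 15109 protein-coding genes with at least 1000 counts. Itgam, an integrin chain of myeloid cells, had 45.6 to 52.2 CPM in clusters 2 and 5 and 0.56 to 13.0 in the others. The clusters share libraries and fall into high and low ones, so this is a description. The summed promoters of the 10 genes stood at 447 and 466 CPM in clusters 2 and 5 and between 50.9 and 60.2 in clusters 0, 1, 3, 4 and 6. Cluster 7, with 62 nuclei and a median of 8797 counts, had 192 CPM. Its best list was the macrophage list at a median log2 fold of 0.39, with 8 of 13 markers above 0. It stayed unnamed because its counts were low and no macrophage marker was among its top genes.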

How the data were processed

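Nuclei of mouse mammary organoids were profiled by scATAC-seq in 1 DOX and 1 EtOH library, with 7600 nuclei loaded each. The authors deposited, per library, a peak list and a matrix of raw counts per peak and nucleus. The file header names Cell Ranger ATAC 2.0.0, while the methods give another version, and the build is mm10 per the submitters' processing notes. Peaks were called per library. Both ends of a fragment were counted (13.8% and 14.3% of nonzero values were odd), so intervals were computed from counts divided by 2 (exact Poisson for levels, exact Clopper-Pearson for shares, level 95%). They cover counting error only.

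Scaffold peaks (69 and 61, with 0.135% and 0.146% of counts) were left out. Peaks overlapping by at least 1 bp were merged, levels were scaled to CPM over counts in shared regions (212475400 and 200718804), and a call needed a 2-fold difference and 100 counts. Nuclei were clustered without the regions of the 10 genes, by latent semantic indexing (components 2 to 30) and Leiden clustering (15 neighbours, resolution 0.5), with scikit-learn 1.9.0, igraph 0.11.9 and leidenalg 0.10.2. A cluster took the name of the marker list with the highest median log2 fold, if enough markers of that list lay above 0. It stayed unnamed where a list of another cell type came within 0.1, a margin set after the data were seen. A cluster with low counts per nucleus also stayed unnamed if no marker of its best list was among its top genes. Doublets were not removed, and the 5% of nuclei with the highest doublet score were left out as an alternative.

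All 10 genes were named, with their promoter and distal region of most macrophage-like counts, for each role group of other macrophage genes the highest and lowest ratio, and the 5 genes most alike over clusters. Further regions were chosen after their values were seen. The genes and lists were chosen with earlier results of these data known. Alternatives changed the clustering, depth, scaling, minimum count, promoter width and the nuclei or regions included. Where a library had no peak, its count is missing and was not taken as 0.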

Additional observations from a re-analysis of the deposited data

How the results depend on the processing

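Of 93 values recomputed under alternatives, 76 stayed close to the reported value, 17 moved and 0 reversed. The macrophage-like share of DOX was 43.1% without the 5% deepest nuclei. Thinning to 10000 counts per nucleus gave a median promoter log2 ratio of 1.41 over all nuclei, 2 regions lower in DOX over all nuclei, and 0 higher and 0 lower within macrophage-like nuclei, where 67 regions still had enough counts. Without a minimum count 7 regions were higher and 4 lower within macrophage-like nuclei. Counting a region as open or not open per nucleus gave 0 lower over all nuclei, and 1 higher and 0 lower within macrophage-like nuclei. Equal weight for both macrophage-like clusters gave 1 higher. Without macrophage-like nuclei the median promoter log2 ratio was 0.069, with 6 regions higher and 3 lower. Without the read-through part of Cx3cr1, an alternative chosen after seeing the data, 0 regions were lower over all nuclei, and 1 was higher and 0 lower within macrophage-like nuclei. The cause of the other shifts was not tested. Leaving out the barcodes found in both libraries, also chosen after seeing the data, moved none of the values computed. Under separate clustering of the libraries, the DOX to EtOH ratios within macrophage-like nuclei were not computed. No paired analysis was possible because each treatment was sequenced as 1 library, and for the same reason no replicate could be left out.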
